A study of Homo sapiens with 4 samples.

Results

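The genes described here are the claudins CLDN1, CLDN2, CLDN3, CLDN4, CLDN6, CLDN12 and CLDN14, occludin (OCLN), the scaffold TJP1 and the adhesion molecule F11R, chosen by gene symbol as components of the tight junction. Of these 10 genes, 9 were read by 13 of the 25893 probes with a gene symbol, and the whole table held 19090 genes. F11R was not analysed here, because none of the probes named here carried its symbol. The values come from 4 microarrays with 1 dye each, hybridised with RNA of Huh7, an established line of human hepatocellular carcinoma cells, to find genes downstream of ACOT12, an acetyl-CoA thioesterase. The control group held 2 arrays of Huh7 cells that stably carried a scramble short hairpin RNA (shRNA), and the other group held 2 arrays of cells that stably carried an shRNA against ACOT12 (shACOT12). Both kinds of cell had been selected with puromycin for 1 week, so the controls share the hairpin delivery and the selection, and the labels do not say how many hairpin sequences or clones were used. The labels do not state separate cultures for the replicates, so each p-value reflects only how far these samples spread, which may be technical.

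Tight junctions seal the space between neighbouring epithelial cells and separate the apical from the basolateral membrane. Claudins are multi-pass membrane proteins that form the strands of the junction, some of them sealing and others forming pores for ions and water. Occludin is another multi-pass protein of the strands, F11R (also called JAM-A) is an immunoglobulin-like adhesion molecule beside them, and TJP1 (ZO-1) is the cytoplasmic scaffold that ties them to actin. In the liver these junctions close the bile canaliculi between hepatocytes, and CLDN1 and OCLN also serve as entry factors of hepatitis C virus.

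Neither the groups nor the targeted gene stood apart clearly on these arrays. ACOT12 had log2 values (log2 intensities after quantile normalization, the scale of all log2 values here) of 8.28 and 7.47 in scramble cells and 7.58 and 7.37 in shACOT12 cells, which overlap, and the difference of its means was -0.40 (SE 0.35, limma adjusted p = 1); every log2 fold change given here is shACOT12 minus scramble in this way. A reduction of ACOT12 mRNA was therefore not detected by its 1 probe, and the groups are named by their labels. The SD of the difference between 2 arrays, over genes at or above the median, was 0.51 for the scramble pair and 0.47 for the shACOT12 pair, against 0.34 to 0.53 for pairs from different groups. The median deposited intensity of an array lay between 327 and 451. All 9 measured hepatocyte markers, albumin and alpha-fetoprotein among them, were above the median gene. Of 7 biliary markers, 4 (KRT19, EPCAM, SOX9 and SPP1) were above it as well, while KRT7 was at or above only 6.35% of genes. Among markers of other cell types, 1 of 7 fibroblast, 0 of 7 endothelial and 2 of 7 leukocyte genes were at or above the median gene, the leukocyte genes at or above it being CD14 and LYZ (at or above 89.0% and 93.2% of genes). The other leukocyte genes, PTPRC, CD3E, CSF1R, CD79A and CD68, were at or above 12.2%, 7.65%, 12.5%, 37.6% and 45.7% of genes. Endothelial genes ranged from 4.88% (CLDN5) to 47.7% (PECAM1), with VWF at 47.0% and CDH5 at 42.5%. Fibroblast genes ranged from 4.34% (COL3A1) to 59.1% (COL1A1). For 2 arrays against 2, the smallest two-sided p of an exact permutation test is 0.333, so the tests used are those of limma fitted across all genes.

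None of the 9 measured tight junction genes passed the adjusted threshold of 0.05 in limma (adjusted p = 1 for each), where 1 of 19090 genes (0.00524%) did. CLDN4 had the largest difference, with values about 2.01-fold lower in shACOT12 cells, and TJP1 was next with values 1.37-fold lower. CLDN2 and CLDN6 had values 1.33-fold and 1.32-fold higher, CLDN14 had values 1.25-fold lower, and CLDN1, CLDN3, CLDN12 and OCLN differed by 1.02-fold to 1.12-fold. At an unadjusted p under 0.05, limma gave 1 of the 9 genes, CLDN4, against 1.76% of all genes. For 3 of the 9 genes both arrays of one group lay above both of the other, against 21.5% of all genes. Of these 3, CLDN6 was higher in shACOT12 cells, as were 11.5% of all genes, and CLDN4 and TJP1 were lower, as were 10.0% of all genes. These shares rest on 9 genes, and the median log2 fold change of the 9 was -0.07 against 0.0078 for all genes. In RNA of a whole culture, fewer cells with a transcript and less of it per cell cannot be told apart.

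**Figure D1:**
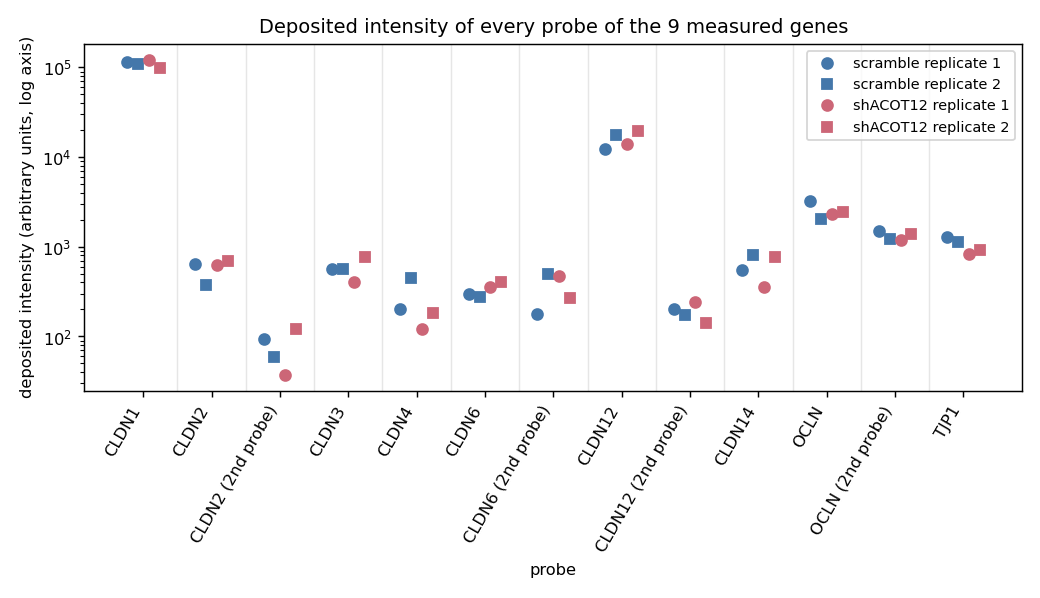
Deposited intensity (arbitrary units, log axis) of the 13 probes on the 4 arrays, with scramble in blue, shACOT12 in red, circles for replicate 1 and squares for replicate 2. CLDN1 stands between 98810 and 121721 on every array, and for most probes the blue and red points are mixed.

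CLDN3, CLDN4 and CLDN6 are shown by the sequence before their start as differing examples, none of them past the adjusted threshold. CLDN4 had the lowest values in shACOT12 cells relative to scramble. CLDN3, its direct neighbour among protein-coding genes on chromosome 7, showed almost no difference. CLDN6, on chromosome 16, separated the other way on 1 of its 2 probes. The gap between the groups was wider for TJP1, which is not printed, at 0.24 against 0.16 for CLDN6. Each line gives the 250 bases before the annotated start, 5′ to 3′ on the gene's own strand, from RefSeq on GRCh38.p14. The windows are chr7:73770271-73770520 (minus strand) for CLDN3, chr7:73830746-73830995 (plus strand) for CLDN4 and chr16:3018184-3018433 (minus strand) for CLDN6. Capitals mark GC boxes, the letters GGGCGG or the reverse complement CCGCCC.
CLDN3: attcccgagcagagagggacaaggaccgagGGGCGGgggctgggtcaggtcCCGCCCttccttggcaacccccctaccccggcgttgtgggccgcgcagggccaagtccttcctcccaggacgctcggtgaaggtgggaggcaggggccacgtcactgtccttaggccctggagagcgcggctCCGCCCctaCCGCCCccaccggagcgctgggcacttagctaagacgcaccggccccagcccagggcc
CLDN4: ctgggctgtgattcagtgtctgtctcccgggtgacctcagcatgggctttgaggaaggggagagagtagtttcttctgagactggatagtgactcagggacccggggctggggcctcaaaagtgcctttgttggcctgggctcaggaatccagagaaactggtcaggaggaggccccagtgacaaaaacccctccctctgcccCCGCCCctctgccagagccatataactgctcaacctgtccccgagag
CLDN6: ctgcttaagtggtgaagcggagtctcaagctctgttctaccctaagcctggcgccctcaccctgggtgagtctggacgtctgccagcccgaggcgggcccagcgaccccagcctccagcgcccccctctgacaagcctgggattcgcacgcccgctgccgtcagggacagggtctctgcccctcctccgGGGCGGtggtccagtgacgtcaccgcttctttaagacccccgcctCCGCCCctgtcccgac

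GC boxes, the letters recognised by Sp family factors, were found 4 times before CLDN3, 1 time before CLDN4, at 47 bases before the start, and at 61 and 16 bases before the start of CLDN6. Windows of 250 bases before a start held a GC box for 42.6% of the 35116 starts in the table and for 8 of the 16 annotated starts of the 9 genes. The E-box CAGGTG or its reverse complement CACCTG, the letters bound by SNAI and ZEB repressors of epithelial genes, was in none of the 3 printed windows. It was found before 4 of the 16 starts, those being 1 of 3 for CLDN14, both for OCLN and 1 of 4 for TJP1, and before 17.5% of all starts. The motifs did not overlap each other in any of the 16 windows. The GC content of the printed windows was 71.6% for CLDN3, 58.8% for CLDN4 and 68.0% for CLDN6. These are matches of letters in a reference sequence, and the arrays measured no binding.

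CLDN4 codes for a sealing claudin of many epithelia and a receptor of a clostridial enterotoxin. Its deposited intensity was 203 on scramble replicate 1 and 443 on scramble replicate 2, and 120 and 185 on the shACOT12 arrays. After normalization its log2 values were 7.69 and 8.74 in scramble cells and 7.23 and 7.20 in shACOT12 cells, so both shACOT12 arrays were below both scramble arrays and scramble replicate 2 stood far above the other 3. Its log2 fold change was -1.00 (SE 0.39, 95% confidence interval -1.95 to -0.06, limma unadjusted p = 0.0399, adjusted p = 1). The scramble arrays alone differed by 1.06 for this gene, more than the difference between the group means. Leaving out scramble replicate 2 gave -0.48 (limma adjusted p = 0.99997), and leaving out scramble replicate 1 gave -1.53 (adjusted p = 1). CLDN4 was read by 1 probe that stood below the median of every array except that of scramble replicate 2. On that array 51.7% of all probes were no brighter, against 33.2% to 39.5% on the other arrays.

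CLDN3, a sealing claudin that shares the same neighbourhood and the same toxin, was read by 1 probe with a deposited intensity of 566 and 561 in scramble cells and 405 and 760 in shACOT12 cells. Its log2 values were 9.17 and 9.08 in scramble cells and 8.89 and 9.41 in shACOT12 cells, so the shACOT12 arrays lay on either side of the scramble arrays. The group means differed by 0.02 on the log2 scale (SE 0.31, adjusted p = 1 in limma), with a 95% confidence interval of -0.71 to 0.75. As a ratio the interval runs from 0.612 to 1.69, so an equal level of CLDN3 in both groups was not shown.

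CLDN6, a claudin of embryonic epithelia that is found in several tumours, had log2 values of 8.26 and 8.08 in scramble cells and 8.71 and 8.41 in shACOT12 cells. Both shACOT12 arrays were above both scramble arrays, by 0.16 at the closest. The difference on the log2 scale was 0.40 (SE 0.29, 95% confidence interval -0.29 to 1.08, adjusted p = 1 in limma), and it stayed between 0.25 and 0.54 with any 1 array left out. The second probe of CLDN6 did not show the same separation. Its log2 values were 7.50 and 8.89 in scramble cells and 9.11 and 7.78 in shACOT12 cells, which overlap, with a log2 fold change of 0.25 (SE 0.60). CLDN9, the protein-coding neighbour of CLDN6, had a log2 fold change of 0.26 (SE 0.29) from a dim probe.

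CLDN1 codes for a claudin that seals epithelia, the liver's included, and was read by 1 very bright probe. Its deposited intensity was 115175 and 109939 in scramble cells and 121721 and 98810 in shACOT12 cells, at or above 98.5% to 98.9% of all probes. The log2 values were 16.79 and 16.84 in scramble cells and 16.83 and 16.57 in shACOT12 cells, so only shACOT12 replicate 2 stood a little apart. The group means differed by -0.12 on the log2 scale (SE 0.28, 95% confidence interval -0.78 to 0.55, adjusted p = 1 in limma). A probe's brightness also depends on its own sequence, so these ranks do not order the genes by transcript number.

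CLDN12, an atypical claudin, was also read by a bright probe, with 12304 and 17560 in scramble cells and 14078 and 19500 in shACOT12 cells. The log2 values were 13.58 and 14.13 in scramble cells and 13.78 and 14.25 in shACOT12 cells, and in both groups replicate 2 was the higher array. The difference between replicates, 0.55 in scramble and 0.47 in shACOT12 cells, was larger than the difference of 0.16 between the group means (SE 0.33, limma adjusted p = 1). Its second, dim probe gave -0.04 (SE 0.47).

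CLDN2 forms channels for cations and water, and CLDN14 is a claudin expressed in the inner ear, kidney and liver. CLDN2 had log2 values of 9.36 and 8.54 in scramble cells and 9.46 and 9.26 in shACOT12 cells, so scramble replicate 2 alone was low. Its log2 fold change was 0.41 (SE 0.36, 95% confidence interval -0.44 to 1.26, adjusted p = 1 in limma), and without scramble replicate 2 it was -0.00024. The dim second probe of CLDN2 gave -0.14 (SE 0.40). CLDN14 had log2 values of 9.14 and 9.63 in scramble cells and 8.70 and 9.43 in shACOT12 cells, with replicate 2 the higher array in both groups. Its log2 fold change was -0.32 (SE 0.36, 95% confidence interval -1.18 to 0.55, adjusted p = 1 in limma).

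OCLN was read by 2 probes that gave nearly the same picture. On the probe with the higher mean the deposited intensity was 3215 and 2054 in scramble cells and 2317 and 2456 in shACOT12 cells. Its log2 values were 11.66 and 10.95 in scramble cells and 11.26 and 11.21 in shACOT12 cells, so both shACOT12 arrays lay between the scramble arrays. The group means differed by -0.07 on the log2 scale (SE 0.33, adjusted p = 1 in limma), with a 95% confidence interval of -0.86 to 0.72. On the other probe the shACOT12 values, both 10.34, again lay between the scramble values of 10.59 and 10.21, with a log2 fold change of -0.06 (SE 0.30).

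TJP1, the scaffold, was read by 1 probe with a deposited intensity of 1281 and 1117 in scramble cells and 827 and 910 in shACOT12 cells. Its log2 values were 10.34 and 10.09 in scramble cells and 9.85 and 9.68 in shACOT12 cells, and the groups were 0.24 apart at the closest. The log2 fold change of -0.45 (SE 0.28, 95% confidence interval -1.12 to 0.22, adjusted p = 1 in limma) was larger than the difference between replicates in either group, 0.25 and 0.17. That was so for 2 of the 9 genes, TJP1 and CLDN6, and for 12.5% of all genes. With any 1 array left out the value for TJP1 stayed between -0.58 and -0.32.

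**Figure D2:**
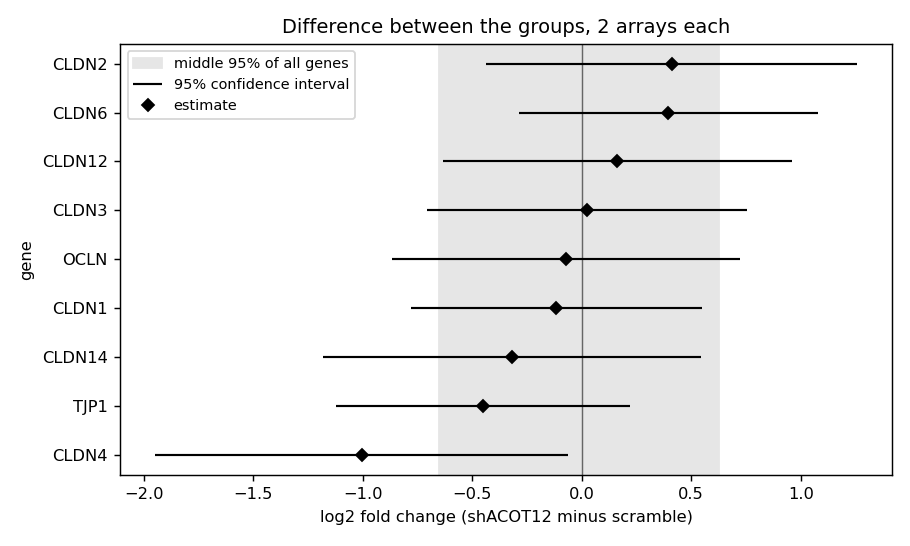
Log2 fold change (shACOT12 minus scramble) of the 9 genes, with diamonds for the estimate, lines for limma's 95% confidence interval and a grey band for the middle 95% of all genes (-0.65 to 0.63). CLDN4 lies outside the band, at -1.00, and its interval is the only one of the 9 that leaves out 0.

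**Figure D3:**
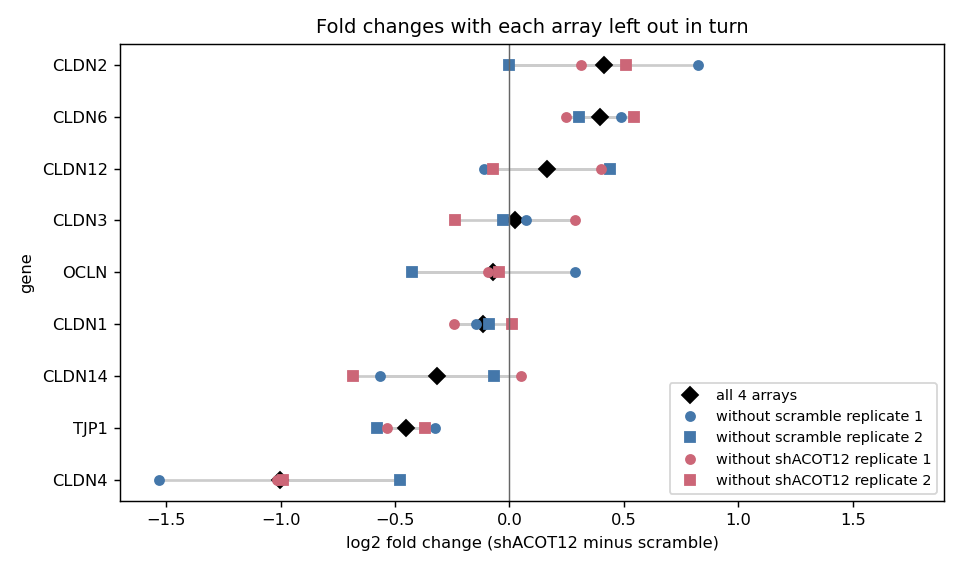
Log2 fold change (shACOT12 minus scramble) of the 9 genes from all 4 arrays (black diamonds) and with each array left out in turn (blue for a scramble array left out, red for an shACOT12 array, circles for replicate 1 and squares for replicate 2). CLDN4, TJP1 and CLDN6 stay on their side of 0, and the other 6 genes cross it.

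The 9 genes did not move together across the arrays. Scramble replicate 2 was the highest array for 3 of them and the lowest for another 3, and every array was the highest for at least 2. The mean log2 value of the 9 genes was 10.66 and 10.67 for scramble and 10.52 and 10.60 for shACOT12 cells. Leaving out 1 array at a time turned the sign of the log2 fold change at least once for CLDN1, CLDN2, CLDN3, CLDN12, CLDN14 and OCLN, and never for CLDN4, CLDN6 or TJP1. No member passed the adjusted threshold in limma with any array left out.

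The other 17 claudins, which are mostly known from kidney, lung, brain and other epithelia, had 3 of 17 members at or above the median gene. In limma 0 of 17 passed the adjusted threshold and 0 had an unadjusted p under 0.05. Values were higher in shACOT12 cells for 12 and lower for 5, mostly from dim probes, beside 48.6% of all genes lower. The median log2 fold change of the 17 was 0.10. CLDN16, a claudin needed for magnesium reabsorption in the kidney and the neighbour of CLDN1, stood at -0.44 (SE 0.44), and its other probe gave -0.20. Scramble replicate 2 alone was high for it, at 11.64 against 10.38 to 10.78 on the other arrays, and without that array the value was 0.17. CLDN34 stood at 0.12 (SE 0.33). CLDN7, a claudin of epithelia that was picked out after its values were seen, showed a high scramble replicate 2 as CLDN4 did, at 9.81 against 8.29 to 8.63. Its log2 fold change was -0.67 (SE 0.46), with -0.15 from its other probe, and without scramble replicate 2 it was -0.0035.

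Among the 11 other measured membrane proteins of tight junctions, 0 passed the adjusted threshold or an unadjusted p under 0.05 in limma, with 6 higher, 5 lower and a median log2 fold change of 0.02. LSR, an angulin of tricellular junctions and a lipoprotein receptor, had log2 values of 11.19 and 10.89 in scramble cells and 11.56 on both shACOT12 arrays. Its log2 fold change was 0.52 (SE 0.28, adjusted p = 1). CXADR, an adhesion molecule that also binds coxsackieviruses and adenoviruses, stood at -0.23 (SE 0.27), but its other probe gave 0.30.

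Of the 20 other scaffold and polarity genes measured, 0 passed the adjusted threshold or an unadjusted p under 0.05 in limma. Values were higher for 9 and lower for 11, and their median log2 fold change was -0.06. The arrays of the groups separated for 8 of 20, beside 21.5% of all genes. They separated for 3 of the 17 other claudins and 3 of the 11 other membrane proteins. Among the lists described below, they separated for 1 of 12 transcription factors and 2 of 6 hepatitis C virus entry factors. AMOT, an angiomotin that binds the Patj and YAP proteins, had log2 values of 10.19 and 9.70 in scramble cells and 10.69 and 10.59 in shACOT12 cells. The difference of 0.69 (SE 0.30, limma adjusted p = 1) put both shACOT12 arrays above both scramble arrays, and it was 0.44 without scramble replicate 2 and 0.94 without scramble replicate 1. PARD6B, a subunit of the polarity complex with PARD3 and atypical protein kinase C, had 12.61 and 12.70 in scramble cells and 12.07 and 12.04 in shACOT12 cells. The replicates of PARD6B lay within 0.09 and 0.03 of each other, and its log2 fold change was -0.60 (SE 0.27, 95% confidence interval -1.25 to 0.04, adjusted p = 1). Its other, much dimmer probe gave -0.50.

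Transcription factors known to repress or maintain junction genes gave 0 of 12 past the adjusted threshold and 0 with an unadjusted p under 0.05 in limma. Values were higher for 4 and lower for 8, beside 48.6% of all genes lower, with a median log2 fold change of -0.10. SNAI1, a repressor of claudin, occludin and E-cadherin genes, stood at -0.50 (SE 0.42) with scramble replicate 2 alone high, at 11.77 against 10.52 to 10.92, and without that array it stood at 0.06. GRHL1, a grainyhead-like factor of epithelia, stood at -0.35 (SE 0.29), with -0.39 from its other probe, and moved to -0.16 without shACOT12 replicate 2 and -0.54 without shACOT12 replicate 1.

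The other entry factors of hepatitis C virus were lower in value for 6 of 6 measured, beside 48.6% of all genes, their median log2 fold change was -0.28, and 0 passed the adjusted threshold. CD81, a tetraspanin that associates with CLDN1 at the cell surface, had deposited intensities of 749 and 699 in scramble cells and 281 and 434 in shACOT12 cells. CD81 was read by 1 probe, with a mean below the median gene (at or above 48.4% of genes). Its log2 values were 9.57 and 9.40 in scramble cells and 8.39 and 8.53 in shACOT12 cells, so the groups were 0.88 apart at the closest, with replicates within 0.17 of each other. The log2 fold change was -1.03 (SE 0.28, 95% confidence interval -1.69 to -0.37, limma unadjusted p = 0.00793, adjusted p = 1), making CD81 the 1 gene of these 6 with an unadjusted p under 0.05, beside 1.76% of all genes. EGFR stood at -0.42 (SE 0.38), with its other probes at -0.42 and 0.03, and leaving out scramble replicate 2 or 1 moved it to -0.023 or -0.81 and leaving out shACOT12 replicate 2 or 1 to -0.14 or -0.70. SCARB1, a high-density lipoprotein receptor, stood at -0.17 (SE 0.28), and leaving out an shACOT12 array moved it to -0.27 or -0.060.

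**Figure D4:**
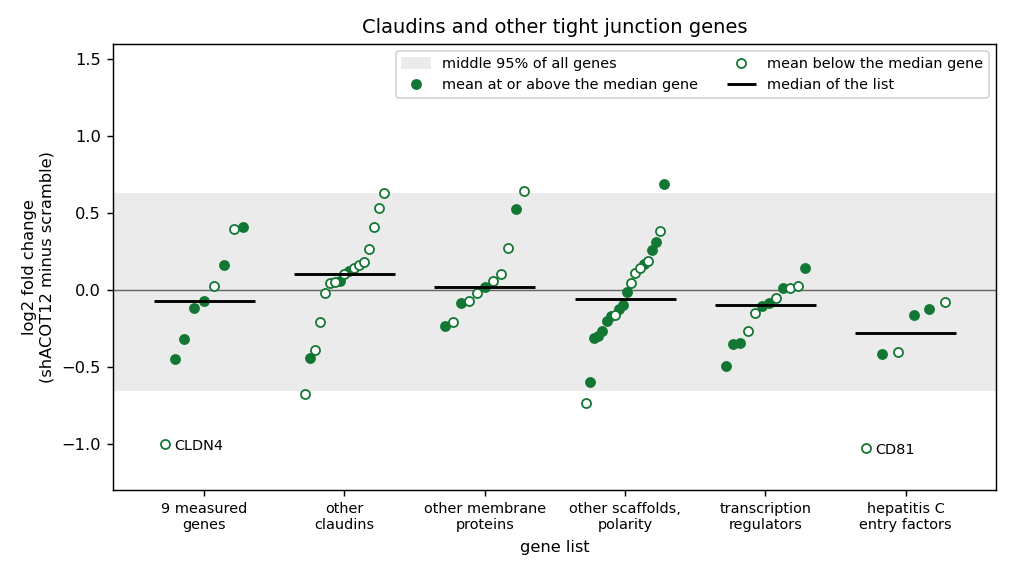
Log2 fold change (shACOT12 minus scramble) of the 9 genes and of 5 wider lists, with 1 point per gene, filled where its mean is at or above the median gene, black bars for list medians and a grey band for the middle 95% of all genes. The list medians lie between -0.28 and 0.10, and CLDN4 and CD81 are the lowest points.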

How the data were processed

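Total RNA of Huh7 cells was amplified to aminoallyl RNA and coupled to Cy5, with 1 dye on each array, per the labels' protocols. The values used were intensities on a linear scale as deposited by the authors, 1 column per sample. Scanner, background correction and normalization are not given in the sources used here, and 1 to 221 intensities per array were below 0. No detection flags were used.

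Intensities under 1 were raised to 1, converted to log2 and quantile normalized, since the arrays' log2 medians differed by up to 0.46. For each gene the probe of highest mean was used, and symbols came from the platform's annotation. Of 28264 probes, 2371 had no symbol and 0 had several. The test was limma's (version 3.58.1, R 4.3.3, functions lmFit and eBayes, no block), with Benjamini-Hochberg adjustment over 19090 genes and a threshold of 0.05. The fit had 2 residual degrees of freedom and a prior of 4.69. Each SE and p-value in limma therefore weighed the spread pooled over all genes more than the spread of that gene's own replicates. A gene with close replicates thus keeps an SE well above their spread. The fit was also run on data simulated from its own prior with independent errors, which does not test how the real replicates spread. Values of further probes come from the same fit with 1 row per probe. The number of arrays limits the precision.

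The members and lists were chosen with earlier results of these data known. Named were all members, ACOT12 and, from each wider list, genes with an unadjusted p under 0.05 and the 2 with the largest difference among those at or above the median gene. RefSeq (GRCh38.p14) gave gene order and promoter windows, and the platform's build is not given, so no probe coordinates are printed. Some listed genes were not analysed here. The alternatives were other scalings, floors, priors, filters and probe rules, the replicate block and leaving out each array.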

Additional observations from a re-analysis of the deposited data

How the results depend on the processing

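None of the 9 measured tight junction genes passed the adjusted threshold in limma under any of the 15 alternatives. Of 330 recomputed log2 fold changes of named genes, 316 kept their sign and their side of the threshold and 14 changed sign, 12 of them by leaving out 1 array. The other sign changes were CLDN3 with values as deposited (-0.022) and CXADR with the mean of its probes (0.034). Leaving out 1 array gave -0.24 to 0.0092 for CLDN1, -0.00024 to 0.82 for CLDN2, -0.24 to 0.28 for CLDN3, -0.11 to 0.44 for CLDN12, -0.68 to 0.049 for CLDN14, -0.43 to 0.29 for OCLN, -0.80 to 0.0039 for ACOT12, -1.06 to 0.17 for CLDN16, -0.23 to 0.48 for CLDN34 and -1.05 to 0.058 for SNAI1. The cause was not tested. For CLDN4 the unadjusted p in limma was 0.0966 for unscaled values, 0.0801 after scaling to the 75th percentile and 0.135 with a floor at the 20th percentile. In the other settings that kept all arrays it lay between 0.0100 (replicate block) and 0.0437 (cyclic loess). The log2 fold change of CLDN4 stayed between -1.01 and -0.94 in every setting that kept all arrays. Alternatives for genes of the wider lists were added after the data were seen.

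Of all genes, 1 passed the threshold. The count was 0 with values as deposited, 75th percentile scaling, cyclic loess or a floor at the 20th percentile, 3 with 16 added to each intensity in place of the floor of 1 or with an intensity trend in the prior, and 0 to 4 with 1 array left out (4 without shACOT12 replicate 2). With the replicate block it was 25, none of them a member, with an adjusted p of 0.703 for CLDN4. The labels do not say that a shared replicate number marks a pair. Deviations of same-numbered arrays from their group means correlated with an r of 0.18 across all genes and 0.28 across genes at or above the median, and with 2 pairs this does not settle the pairing. With 2 arrays a group, the 95% confidence interval of CLDN3 reached a ratio of 1.69. That of every other member reached a larger fold difference in at least 1 direction.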
